A study of Mus musculus with 12 samples.

Results

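Bile acid synthesis, uptake and export were followed through 10 genes of 19935 measured in fetal mouse liver. They were taken as the genes whose symbols the platform's gene table pairs with a probe set of the deposited log2 values, and all 10 were measured, each by 1 probe set. The enzymes were Cyp7a1, Cyp27a1, Cyp7b1, Cyp8b1, Akr1d1 and Baat, the transporters Slc10a1 and Abcb11, and the nuclear receptors Nr1h4 and Nr0b2. The study compared livers of fetuses without the histone variants macroH2A1 and macroH2A2 with wild-type livers on 12 arrays, 6 of each genotype. Macroh2a1 and Macroh2a2 encode histones that replace ordinary H2A in part of the chromatin and carry an additional large globular domain.

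Both groups were male fetuses of strain 129/S6 (taconic) at 18.5 days post coitum. Embryos of the 2 genotypes had been mixed before implantation into wild-type foster mothers, so each fetus developed in a wild-type uterus, and the mothers were killed in the morning. The double knockout group lacked macroH2A1 and macroH2A2, and the wild-type group had both. The sources used here do not give how the alleles were made or which fetuses shared a recipient. Each array held the RNA of a whole liver, so fewer cells of a type and less RNA per cell cannot be told apart.

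Bile acids are made from cholesterol in hepatocytes, by a classic pathway that begins with Cyp7a1 and an alternative pathway that begins with Cyp27a1 and continues through Cyp7b1. The products are conjugated to taurine, secreted across the canalicular membrane by Abcb11 and recovered from portal blood by Slc10a1. Bile acids bind the receptor Nr1h4, also called FXR, which induces Abcb11 and Nr0b2, and the Nr0b2 protein, also called SHP, represses Cyp7a1 and Cyp8b1. In the fetal liver, which is also the site of blood formation, this system is being established before birth.

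The sequences just before the start sites were searched for motifs. Those of Abcb11, Cyp8b1, Akr1d1 and Nr1h4 are printed because each held a match, and those of Cyp27a1, Nr0b2 and Slc10a1 are not printed. Whether such motifs have a part in how the genes varied across arrays was not tested. RefSeq's table for build GRCm38.p6 held 8 start sites for 7 of the 10 genes, and each sequence covers the 250 bases before a start, read 5′ to 3′ on the strand of the gene. Capitals mark exact matches, on either strand, to AGGTCA (a nuclear receptor core motif, of which Nr1h4 with its partner Rxra binds an inverted pair, so a single copy is not that pair's site), CAAAGTCCA (Hnf4a) or TCAAGGNCA (Nr5a2).
Abcb11, chr2:69342617-69342866, minus strand: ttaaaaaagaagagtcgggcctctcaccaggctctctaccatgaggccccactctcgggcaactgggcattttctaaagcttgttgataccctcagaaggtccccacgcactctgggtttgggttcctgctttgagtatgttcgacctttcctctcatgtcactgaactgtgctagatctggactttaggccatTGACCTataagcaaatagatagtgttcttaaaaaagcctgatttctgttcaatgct
Cyp8b1, chr9:121916306-121916555, minus strand: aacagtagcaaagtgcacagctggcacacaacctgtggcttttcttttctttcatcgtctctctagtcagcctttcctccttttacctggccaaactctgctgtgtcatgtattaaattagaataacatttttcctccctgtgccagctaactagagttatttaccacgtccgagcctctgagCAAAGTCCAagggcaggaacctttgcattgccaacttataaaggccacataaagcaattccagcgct
Akr1d1, chr6:37529923-37530172, plus strand: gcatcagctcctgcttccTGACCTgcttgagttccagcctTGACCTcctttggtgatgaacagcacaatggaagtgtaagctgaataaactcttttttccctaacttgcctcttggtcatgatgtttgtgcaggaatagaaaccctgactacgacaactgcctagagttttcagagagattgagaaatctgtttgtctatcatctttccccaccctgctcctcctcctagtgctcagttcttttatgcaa
Nr1h4, chr10:89506659-89506908, minus strand: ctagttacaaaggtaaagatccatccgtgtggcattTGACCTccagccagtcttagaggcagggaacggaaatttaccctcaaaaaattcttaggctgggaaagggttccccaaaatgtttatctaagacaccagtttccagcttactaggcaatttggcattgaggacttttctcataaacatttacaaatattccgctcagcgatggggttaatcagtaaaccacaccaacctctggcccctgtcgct
The bile salt pump gene Abcb11 had AGGTCA on the opposite strand, beginning 56 bases before the start. In Akr1d1 the same letters stood 232 and 210 bases before the start, both on the opposite strand, and in Nr1h4 they stood 214 bases before it. Cyp8b1 had CAAAGTCCA 67 bases before its start. Of the sequences not printed, that of 1 start site of Slc10a1 had AGGTCA on the strand of the gene, 87 bases before the start. Over all 8 member promoters AGGTCA was present in 4, against 14.0% of the 32851 promoters of the table. CAAAGTCCA was present in 1 of 8, against 0.384%. TCAAGGNCA was present in 0 of 8, against 1.39%. With 8 promoters these shares are descriptions, and a match of letters is not a measured binding site.

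The arrays matched the labels at 1 of the targeted genes. Macroh2a1 fell from 10.36 ± 0.13 (SD, n = 6) to 9.59 ± 0.06 (SD, n = 6) on the log2 scale, a difference of −0.77 (limma, adjusted p = 3.5e-05), and all 6 double knockout arrays lay below every wild-type array. The Macroh2a2 probe set read 9.30 ± 0.15 (SD, n = 6) and 9.21 ± 0.28 (SD, n = 6), a difference of −0.09 (limma, adjusted p = 0.992). The sources used here do not say where the probe sets lie relative to the deleted sequence, so the Macroh2a2 reading checks nothing about that allele. The tissue label was checked against 12 measured hepatocyte markers. Alb averaged 14.17 in wild type and 14.17 in double knockout, and Apoa1, Ttr and Afp were between 13.84 and 13.98 in wild type. Tat had the lowest value of the 12, at 9.09 in wild type and 8.75 in double knockout, a difference of −0.34. Of the 12, 10 had a lower mean in double knockout and 2 a higher one, with a median difference of −0.02. Array medians ranged from 7.55 to 7.61. The number of arrays limits the precision.

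None of the 10 bile acid genes passed the test between genotypes, and all 10 had a lower mean in double knockout liver. The differences ran from −0.03 for Cyp7b1 to −0.25 for Akr1d1 on the log2 scale, and the adjusted p-values were 0.992 or 0.993 (limma, Benjamini-Hochberg adjustment over 19935 genes). Among all genes 3 were lower past the adjusted threshold of 0.05, or 0.015%, and 0 were higher. At an unadjusted limma p under 0.05, 256 genes were lower, or 1.28%, and 527 were higher, or 2.64%. Of the bile acid genes 1, Baat, was in the lower set and 0 were in the higher set. A lower double knockout mean was seen for 41% of all genes, against 10 of 10 here. That share treats the 10 genes as if they were separate, whereas their values varied together across the arrays. The median difference was −0.14 over the 10 genes and 0.01 over all genes. Over the genes above the median gene mean, which include 8 of the 10, it was −0.006, so the all-gene values are not those of equally bright genes. For 0 of the 10 did the 2 genotypes separate without overlap, which 0.1% of all genes did downward and 0.11% upward.

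**Figure D1:**
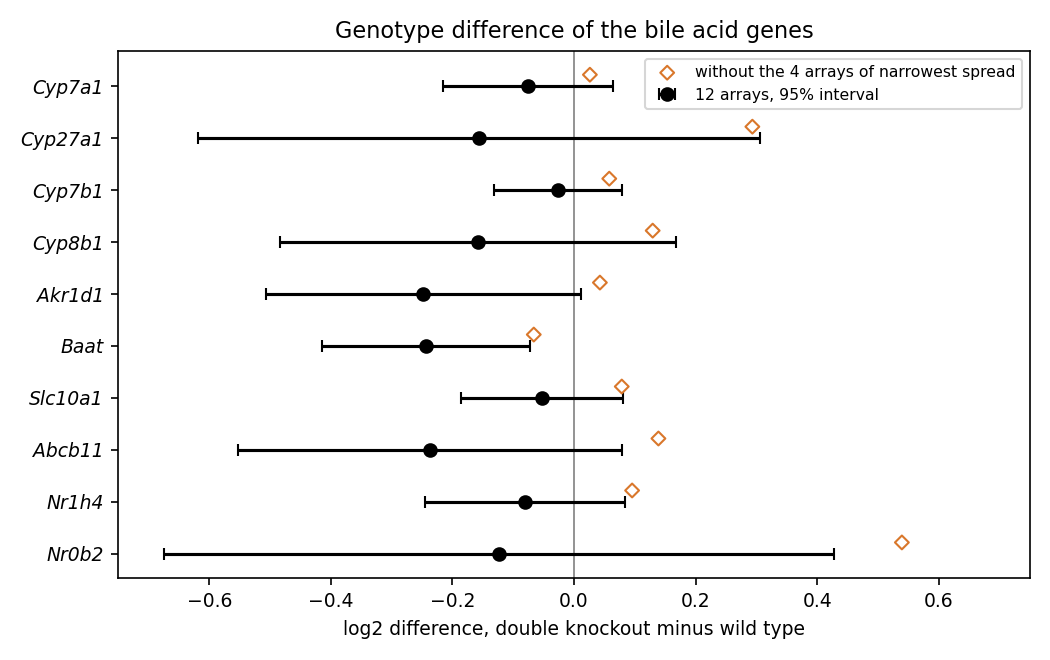
Difference between double knockout and wild type for each bile acid gene, in log2 units. Black points are the means over 12 arrays with 95% intervals, and orange diamonds are the differences without the 4 arrays of narrowest value distribution. All 10 black points lie below 0 and 9 of the 10 intervals include 0, while 9 of the 10 diamonds lie above 0.

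The lowest values lay in 3 of the 6 double knockout arrays. Double knockout replicates 3, 5 and 6 had all 10 genes below the wild-type mean. Replicate 3 lay below every wild-type array for 8 genes, replicate 5 for 8 and replicate 6 for 5. Double knockout replicates 1, 2 and 4 had 3, 2 and 2 genes below the wild-type mean, and each of them lay above every wild-type array for 3 genes. The median of the 10 genes, relative to the wild-type mean, was −0.32, −0.48 and −0.19 in replicates 3, 5 and 6, against 0.11, 0.06 and 0.09 in replicates 1, 2 and 4. In the 6 wild-type arrays it lay between −0.12 and 0.11. The double knockout group thus held arrays at, or a little above, the wild-type level and arrays below it. Of the low arrays, replicate 6 was the closest to the lowest wild-type array, at −0.19 against −0.12.

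**Figure D2:**
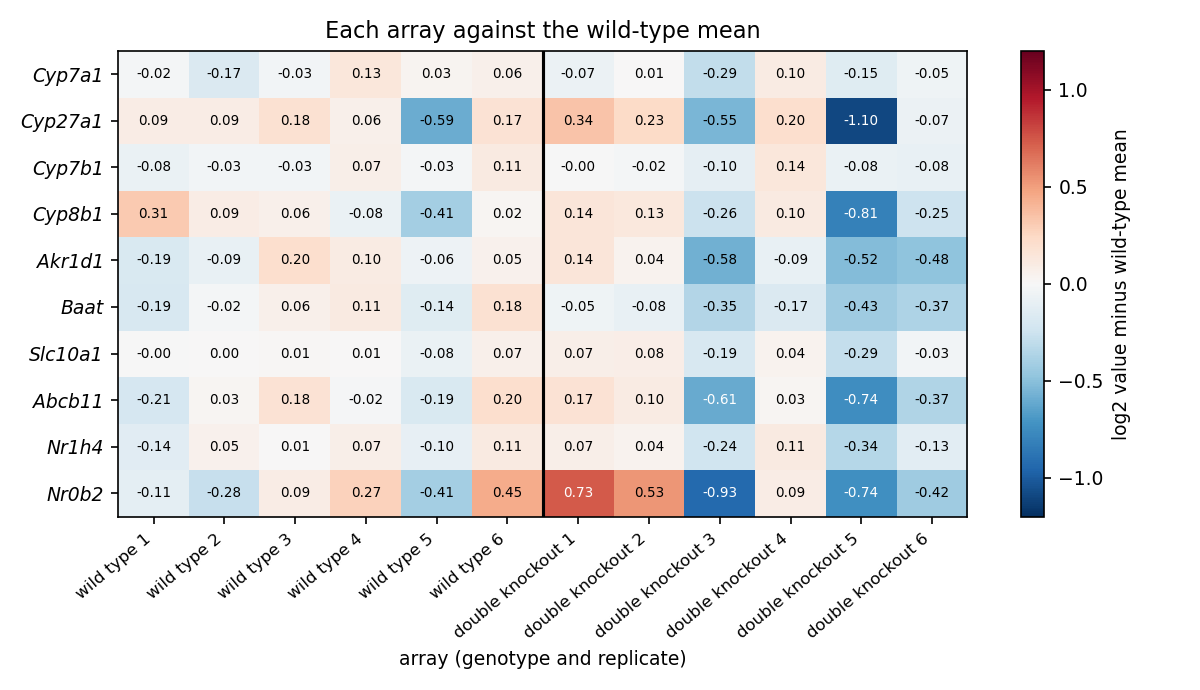
Value of each bile acid gene on each array minus the wild-type mean of that gene, in log2 units (colour and printed number). Rows are genes, columns are the 6 wild-type and 6 double knockout arrays, and the columns of double knockout replicates 3, 5 and 6 are blue in all 10 rows.

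Those 3 arrays also had narrow value distributions. The interquartile range over genes was 2.75, 2.67 and 2.70 in double knockout replicates 3, 5 and 6, and between 2.81 and 2.88 in the other 3 double knockout arrays. It was 2.67 in wild-type replicate 6, which had 0 of the 10 genes below the wild-type mean, and between 2.80 and 2.89 in the other wild-type arrays. With the interquartile range as a covariate all 10 differences stayed below 0 and all 10 were closer to it. Baat was at −0.23, Akr1d1 at −0.19, Abcb11 at −0.18 and Cyp7a1 at −0.06. The other 6 moved by more than 1.5 times, to −0.10 for Cyp8b1, −0.08 for Cyp27a1, −0.05 for Nr0b2, −0.05 for Nr1h4, −0.03 for Slc10a1 and −0.01 for Cyp7b1. Without these 4 arrays, an alternative chosen after seeing the data, 1 of the 10 genes, Baat, had a lower mean. The part of the distribution width in the results was not tested further.

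The classic pathway's first enzyme spanned a narrow range of values in both genotypes. Cyp7a1, the rate-limiting cholesterol hydroxylase, ranged from 11.43 to 11.74 with a median of 11.61 in wild type, and from 11.31 to 11.70 with a median of 11.54 in double knockout. The groups overlapped, with 1 double knockout array, replicate 3, below all wild-type arrays. The means were 11.60 ± 0.10 (SD, n = 6) and 11.52 ± 0.13 (SD, n = 6), a difference of −0.08 with a 95% interval from −0.22 to 0.06 (exact permutation p = 0.301, 2-sided). A decrease of Cyp7a1 below that interval's lower end was therefore not compatible with these arrays at the 95% level, while smaller ones could not be told from 0.

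Cyp8b1, the sterol hydroxylase that directs the pathway to cholic acid, was more variable. It ranged from 10.43 to 11.15 with a median of 10.88 in wild type, and from 10.03 to 10.98 with a median of 10.77 in double knockout. Only double knockout replicate 5 lay below all wild-type arrays. The difference of means was −0.16, from 10.84 ± 0.24 (SD, n = 6) to 10.68 ± 0.37 (SD, n = 6), with a 95% interval from −0.48 to 0.17 (exact permutation p = 0.418, 2-sided). The highest and lowest double knockout livers differed 1.94-fold.

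In the alternative pathway, Cyp27a1 was lower on a few arrays, of both genotypes, than on the rest. This mitochondrial enzyme oxidises the sterol side chain in both pathways. Wild-type values ran from 10.77 to 11.54 with a median of 11.45, and double knockout values from 10.26 to 11.70 with a median of 11.42. Wild-type replicate 5 and double knockout replicates 3 and 5 were low, and double knockout replicates 1, 2 and 4 lay above every wild-type array. The means were 11.36 ± 0.29 (SD, n = 6) and 11.20 ± 0.56 (SD, n = 6), a difference of −0.16 with a 95% interval from −0.62 to 0.31 (exact permutation p = 0.619, 2-sided). Without double knockout replicate 5 the difference was 0.03. The range within a genotype was 1.71-fold in wild type and 2.70-fold in double knockout.

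Cyp7b1, the oxysterol hydroxylase that follows Cyp27a1, had the smallest difference of the 10. Its values ran from 5.52 to 5.71 with a median of 5.57 in wild type, and from 5.50 to 5.74 with a median of 5.56 in double knockout, below the median of all probe sets on every array. The genotypes overlapped, with 2 double knockout arrays below every wild-type array and 1 above. The difference was −0.03 with a 95% interval from −0.13 to 0.08 (exact permutation p = 0.602, 2-sided).

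Akr1d1, the reductase that saturates the steroid ring of bile acid intermediates, ran from 10.04 to 10.43 with a median of 10.22 in wild type. In double knockout it ran from 9.65 to 10.37 with a median of 9.94. Double knockout replicates 3, 5 and 6 lay below every wild-type array, and the other 3 lay within the wild-type range. The means were 10.23 ± 0.14 (SD, n = 6) and 9.98 ± 0.32 (SD, n = 6), a difference of −0.25 with a 95% interval from −0.51 to 0.01 (exact permutation p = 0.121, 2-sided). In linear terms the mean was 1.19-fold lower.

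Baat, which conjugates bile acids to taurine, was the 1 gene whose interval did not include 0. Wild-type values ran from 7.67 to 8.04 with a median of 7.88, and double knockout values from 7.43 to 7.81 with a median of 7.60. All 6 double knockout arrays lay below the wild-type mean and 3 lay below every wild-type array, so the groups overlapped. The means were 7.86 ± 0.15 (SD, n = 6) and 7.62 ± 0.16 (SD, n = 6), a difference of −0.24 with a 95% interval from −0.42 to −0.07, or 1.18-fold lower (exact permutation p = 0.026, 2-sided). Over all genes the limma adjusted p was 0.992, so Baat did not pass the test. With each array left out in turn the difference stayed between −0.28 and −0.21. Without the 4 arrays of narrowest distribution it was −0.07.

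Of the transporters, Slc10a1 was nearly constant in wild type. This sodium-dependent carrier takes conjugated bile acids up from blood. It ran from 13.04 to 13.19 with a median of 13.13 in wild type, and from 12.84 to 13.20 with a median of 13.13 in double knockout. Double knockout replicates 3 and 5 lay below all wild-type arrays and replicates 1 and 2 above them. The difference was −0.05 with a 95% interval from −0.19 to 0.08 (exact permutation p = 0.461, 2-sided).

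Abcb11, the bile salt export pump, varied more. It ran from 11.62 to 12.03 with a median of 11.83 in wild type, and from 11.08 to 11.99 with a median of 11.65 in double knockout. Double knockout replicates 3, 5 and 6 lay below every wild-type array, at 11.22, 11.08 and 11.46, while the other 3 lay between 11.85 and 11.99. The means were 11.82 ± 0.17 (SD, n = 6) and 11.59 ± 0.39 (SD, n = 6), a difference of −0.24 with a 95% interval from −0.55 to 0.08 (exact permutation p = 0.201, 2-sided). That interval extends from 1.47-fold lower to 1.06-fold higher. The pump's mRNA differed 1.33-fold between the extreme wild-type livers and 1.88-fold between the extreme double knockout livers.

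**Figure D3:**
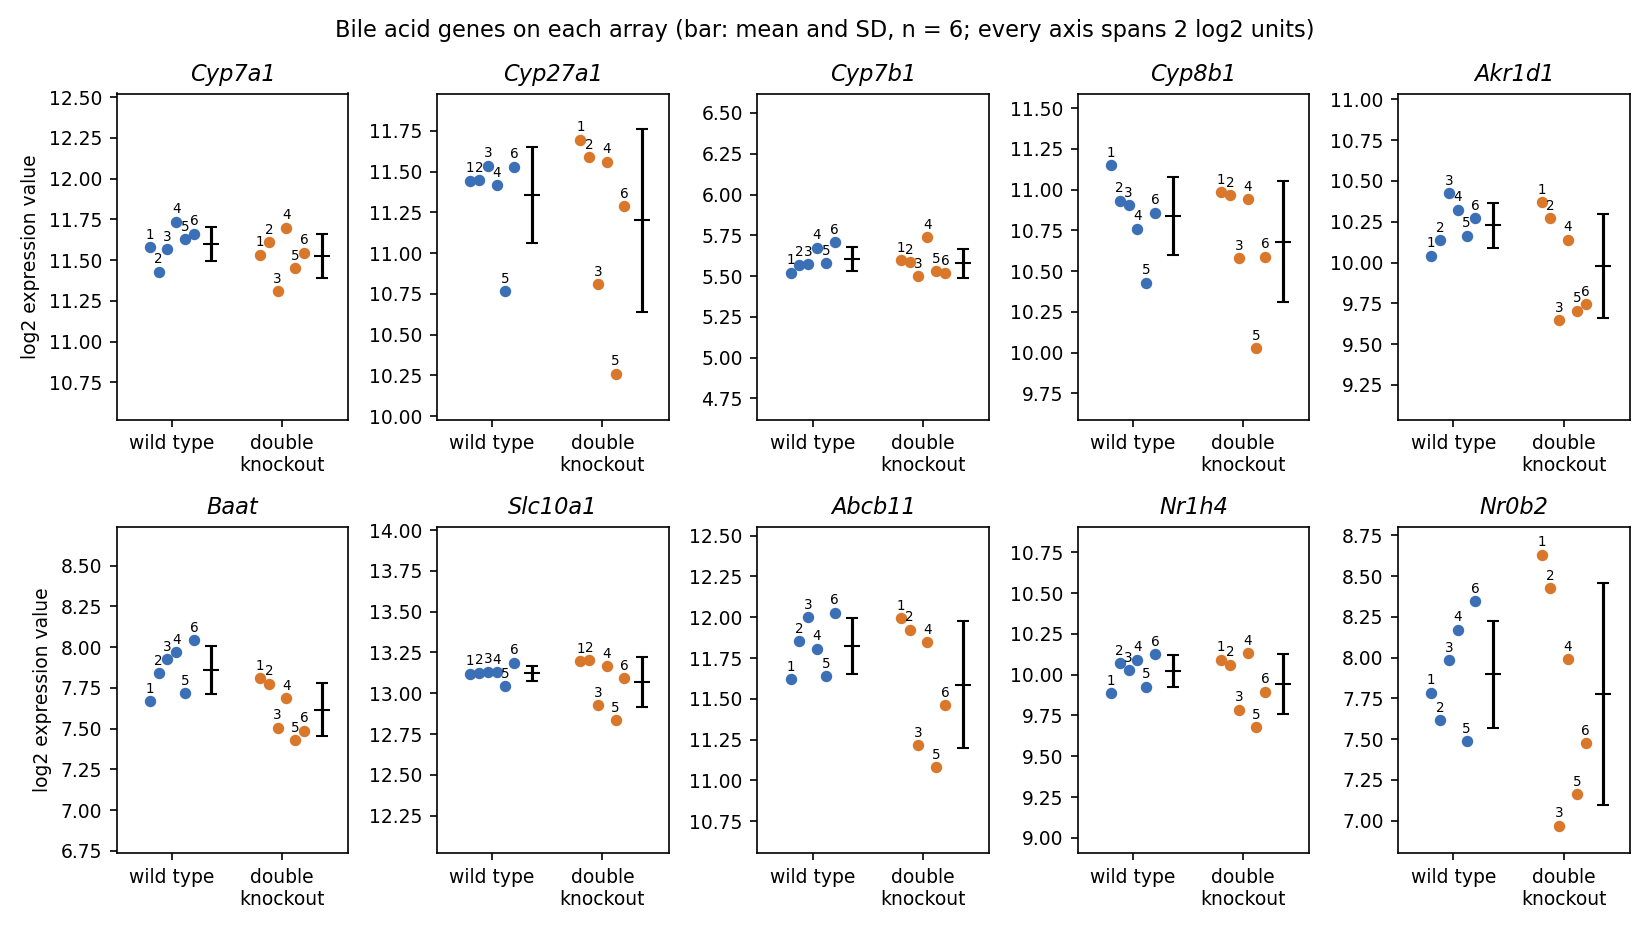
Log2 value of each of the 10 bile acid genes on every array, with 6 wild-type and 6 double knockout points labelled by replicate in each panel and bars for the mean and SD. The 2 genotypes overlap in all 10 panels, and Nr0b2 and Cyp27a1 have the widest double knockout ranges.

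The 2 receptors had overlapping values in the 2 genotypes. Nr1h4, the bile acid receptor, ran from 9.89 to 10.13 with a median of 10.05 in wild type, and from 9.68 to 10.13 with a median of 9.98 in double knockout. Its difference was −0.08 with a 95% interval from −0.24 to 0.08 (exact permutation p = 0.368, 2-sided). Nr0b2, the repressor induced by Nr1h4, had the widest range of the 10 genes. It ran from 7.49 to 8.34 with a median of 7.89 in wild type, and from 6.97 to 8.63 with a median of 7.73 in double knockout. Double knockout replicates 1 and 2 lay above every wild-type array and replicates 3, 5 and 6 below. The means were 7.90 ± 0.33 (SD, n = 6) and 7.78 ± 0.68 (SD, n = 6), a difference of −0.12 with a 95% interval from −0.67 to 0.43 (exact permutation p = 0.684, 2-sided). Without double knockout replicate 3 the difference was 0.04. The extreme livers differed 1.81-fold in wild type and 3.16-fold in double knockout.

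The spread within double knockout was larger than within wild type for all 10 genes, against 56.9% of all genes. The ratio of the SDs had a median of 1.91, against 1.08 over all genes, and was highest for Slc10a1 at 3.32, Akr1d1 at 2.28 and Abcb11 at 2.25. It was lowest for Baat at 1.11. The absolute deviations from the genotype median were then compared with limma across all genes. At an unadjusted p under 0.05, 4 of the 10 genes had a wider spread in double knockout, against 5.12% of all genes. These were Akr1d1, Abcb11, Nr0b2 and Slc10a1, with unadjusted limma p-values from 0.00132 for Akr1d1 to 0.0462 for Slc10a1. All 4 lost that threshold when some single arrays were left out, with limma p up to 0.268 for Akr1d1, 0.256 for Abcb11, 0.171 for Nr0b2 and 0.237 for Slc10a1. For Akr1d1 this held for each of the 6 double knockout arrays, for Nr0b2 for double knockout replicates 1 to 5 and for Abcb11 for replicates 3, 5 and 6. For Slc10a1 it held for double knockout replicates 3, 5 and 6 and wild-type replicates 1 to 4, and after quantile normalization. The spread difference of Akr1d1, 0.17 with all arrays, was 0.10 without double knockout replicate 1, that of Abcb11 went from 0.20 to 0.11 without replicate 5, that of Nr0b2 from 0.31 to 0.19 without replicate 1, and that of Slc10a1 from 0.09 to 0.05 without replicate 5. After adjustment 0 of the 10 passed, with limma adjusted p-values from 0.310 for Akr1d1 to 0.998 for Cyp7b1, and 0.00502% of all genes had a wider spread past the threshold. With 6 arrays a group this adjusted test finds few even of large differences in spread, so the count of 0 says little. The comparison of spreads was prompted by earlier results of these data, and 170 genes were narrower in double knockout at the same unadjusted threshold. As with the lower means, the shares of the 10 genes treat them as separate, whereas their values varied together across the arrays.

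**Figure D4:**
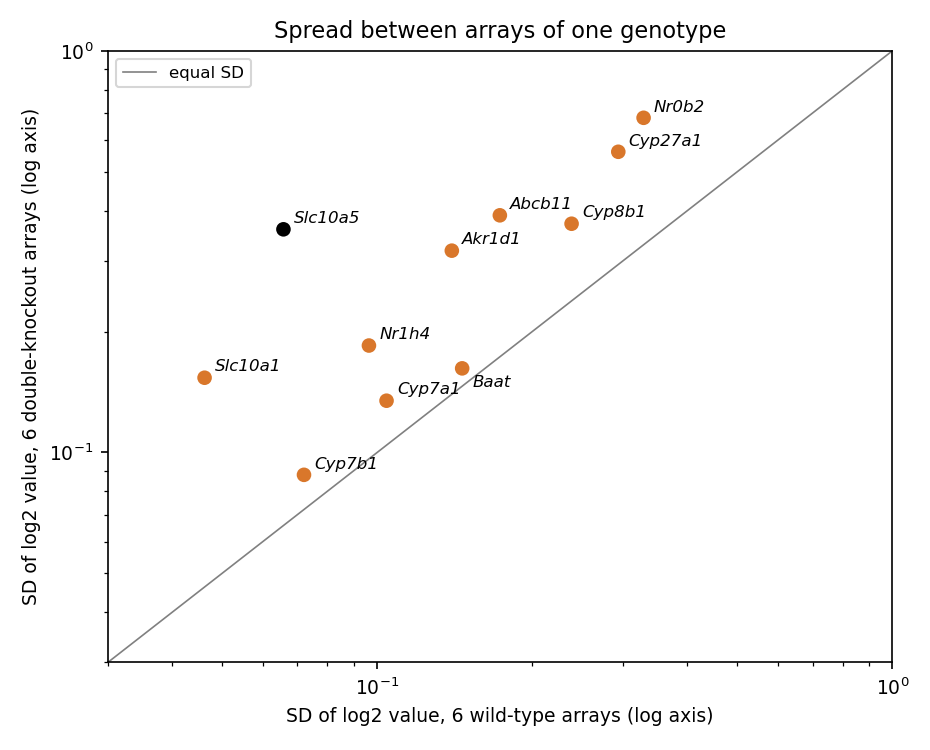
Spread of the bile acid genes within each genotype, as the SD over 6 arrays in log2 units on log axes, wild type across and double knockout up, with a line at equal SD. Orange points are the 10 genes and the black point is Slc10a5, described further on. The SD was larger in double knockout for all 10 genes, with Nr0b2 at 0.33 and 0.68 and Baat at 0.15 and 0.16.

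The 10 genes went up and down together across arrays. After each gene's genotype mean was subtracted, all 45 pairs had a positive Pearson correlation over the 12 arrays, with a median r of 0.75. In 19 pairs r was over 0.8 and in 5 it was under 0.5. Cyp27a1 with Slc10a1 was the closest pair, with r = 0.96, followed by Abcb11 with Nr1h4 and with Slc10a1, both with r = 0.94. Abcb11 with Nr0b2 had r = 0.91. Cyp7a1 with Cyp8b1, both targets of Nr0b2 repression, was the loosest pair, with r = 0.25. With Nr0b2 itself, r was 0.64 for Cyp7a1 and 0.67 for Cyp8b1, both positive. Whether regulation among these genes had a part in the correlations was not tested. Against the mean of the other 9 genes, r was 0.96 for Abcb11, 0.95 for Nr1h4, 0.93 for Slc10a1 and 0.92 for Nr0b2, and 0.60 for Cyp7a1. These values are descriptions, since the points share arrays, their scale and their cell make-up.

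**Figure D5:**
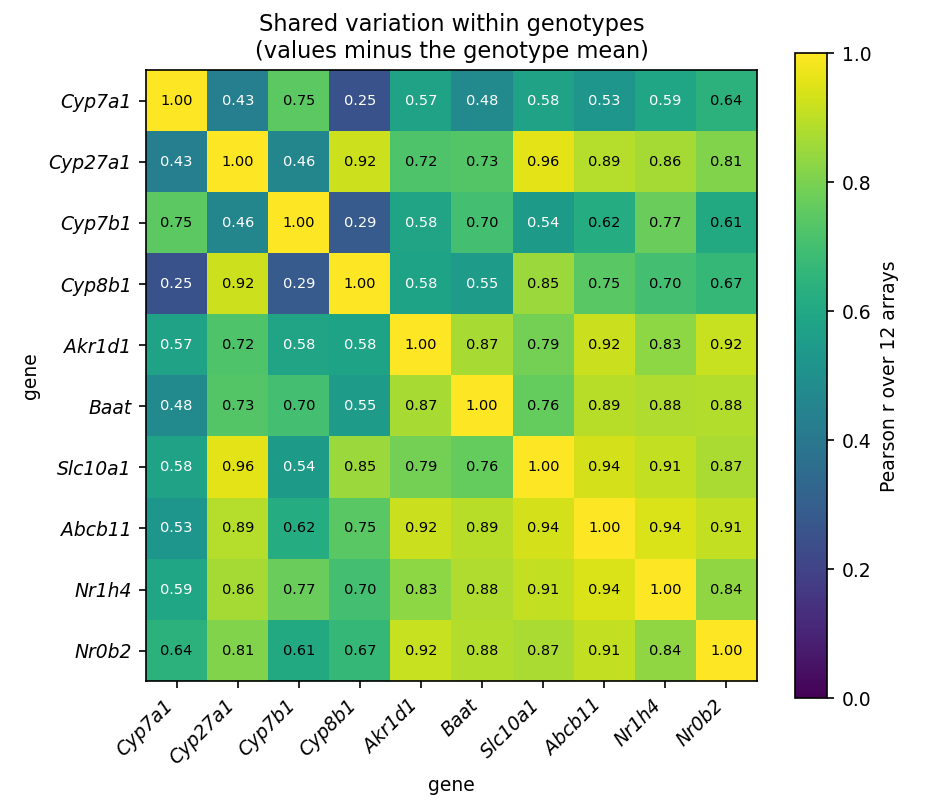
Pearson correlation between the bile acid genes over 12 arrays after subtraction of each gene's genotype mean (colour and printed number). All 45 pairs are above 0, and the lowest is that of Cyp7a1 with Cyp8b1, at 0.25.

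Genes with the same profile included many that do not belong to bile acid metabolism. Over the 12 arrays 866 genes, or 4.34%, had r over 0.8 with the mean profile of the 10, and so did 7 of the 10 themselves against the other 9. The closest outside the lists described here were Pde3b (r = 0.988), Apoc3 (r = 0.987), Ddo (r = 0.984), Ifit3 (r = 0.984) and Apcs (r = 0.983). Pde3b encodes a cyclic nucleotide phosphodiesterase, Apoc3 an apolipoprotein, Ddo an aspartate oxidase, Ifit3 an interferon-induced protein and Apcs the serum amyloid P component. Their differences between genotypes were −0.10, −0.34, −0.15, −0.27 and −0.09, and 0 of the 5 passed the limma test.

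Of 19 other measured genes of bile acid synthesis, 0 passed the test and 14 had a lower mean in double knockout, with a median difference of −0.05. At an unadjusted limma p under 0.05 there were 0 in either direction. The 3 of smallest p were Akr1c6, a hydroxysteroid dehydrogenase, at −0.24, Stard5, a sterol carrier, at −0.15, and Scp2, the peroxisomal thiolase of side-chain shortening, at −0.21. The spread was wider in double knockout for 17 of the 19, with a median SD ratio of 2.31, and 12 had r over 0.8 with the profile of the 10. Abcd3, a peroxisomal transporter chosen after its values were seen, ran from 10.44 to 10.59 in wild type and from 10.22 to 10.65 in double knockout, with an SD ratio of 4.06.

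Of 24 other measured transporters of bile acids and bile lipids, 0 passed the test of means and 18 had a lower mean, with a median difference of −0.06. At an unadjusted limma p under 0.05 there were 0 in either direction. Fabp6, a bile acid binding protein of the ileum, read 5.38 and 5.46, a difference of 0.08. Ephx1, an epoxide hydrolase, differed by −0.25 and Abcb1a, a drug efflux pump, by −0.10. The spread was wider in double knockout for 20 of the 24. Slc10a5, a relative of Slc10a1, was the 1 gene of all 19935 whose spread differed past the threshold (limma, adjusted p = 0.0090). In wild type it ran from 8.56 to 8.73, and in double knockout replicates 1, 2 and 4 read 8.93, 8.91 and 8.83 while replicates 3, 5 and 6 read 8.22, 8.18 and 8.34. Its means, 8.66 ± 0.07 (SD, n = 6) and 8.57 ± 0.36 (SD, n = 6), differed by −0.09. The adjusted p for its spread ran from 0.0185 to 1.0 with an array left out in limma, past the threshold only without wild-type replicates 1, 4, 5 or 6, and was 0.185 after quantile normalization.

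Of 28 other measured regulators, 0 passed the test and 20 had a lower mean, with a median difference of −0.04. At an unadjusted limma p under 0.05, 1 was lower and 1 higher. Smarca4, the ATPase of a chromatin remodelling complex, read 10.55 and 10.39, a difference of −0.16, and Nr2f1, an orphan nuclear receptor, read 6.23 and 6.33, a difference of 0.10. Ppara, the fatty acid receptor, differed by −0.15. The SD ratio had a median of 1.28, and 7 of the 28 had r over 0.8 with the profile of the 10. Chosen after their values were seen, Nr1i3, a xenobiotic receptor, had r = 0.97 with that profile, Nr5a2, an activator of Cyp7a1 and Cyp8b1, had r = 0.38, and Fgfr4, the receptor for the ileal hormone Fgf15, had r = −0.53.

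Levels of the markers of other cell types are given for the same arrays. The mean of the 12 hepatocyte markers lay between 13.22 and 13.34 in wild type and between 13.08 and 13.37 in double knockout, with the lowest values, 13.08 and 13.12, in double knockout replicates 5 and 3. For hepatocyte markers 10 of 12 had a lower mean, with a median difference of −0.02. The hepatocyte markers had a median r of 0.43 with the bile acid genes. In 4 of the 12 it was over 0.8, against 4.34% of all genes. Of the stellate cell markers 4 of 10 were over 0.8 as well. So were 1 of 10 endothelial, 1 of 10 bile duct and 1 of 12 macrophage markers. The 14 measured erythroid markers averaged between 11.21 and 11.58 in wild type and between 11.35 and 11.61 in double knockout. Their median r with the bile acid genes was −0.60, and 5 of 14 had a lower mean in double knockout. Double knockout replicate 3 had the highest erythroid mean of the 12 arrays and wild-type replicate 6 the lowest. With the erythroid mean as a covariate all 10 bile acid genes had a lower double knockout mean. That erythroid mean averaged 11.47 in wild type and 11.47 in double knockout, so as a covariate it could move a genotype difference only a little.

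The 10 measured bile duct markers averaged between 8.00 and 8.24 in wild type and between 8.00 and 8.21 in double knockout, with 5 of 10 lower. Their median r with the bile acid genes was 0.49. The 12 macrophage markers averaged between 9.57 and 9.77 in wild type and between 9.52 and 9.75 in double knockout. Of these 7 of 12 were lower, and the median r was 0.23. The median r with the bile acid genes was 0.71 over 10 endothelial markers and 0.68 over 10 stellate cell markers, against −0.05 over all genes. The exocrine pancreas markers were the most uneven, with array means from 7.40 to 10.58 in wild type and from 7.44 to 10.60 in double knockout and a median r of 0.13. All 14 of them had a higher mean in double knockout, with a median difference of 0.89, and 0 of the 14 had an unadjusted limma p under 0.05. With their mean as a covariate the difference went from −0.16 to −0.09 for Cyp8b1, from −0.08 to −0.12 for Cyp7a1 and from −0.03 to −0.04 for Cyp7b1, and moved by less than 1.5 times for the other 7 genes. Intestinal markers averaged between 6.93 and 7.71 in wild type and between 6.91 and 7.02 in double knockout, with a median r of 0.01. The part of cell make-up in the differences of the bile acid genes was not tested beyond the covariates named.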

How the data were processed

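RNA of 12 whole fetal livers, 250 ng each, was labelled with the Ambion WT Expression Kit and hybridised to an array, per the labels' protocols. The log2 expression values, 1 per probe set, were deposited by the authors and came from Affymetrix Expression Console, per the submitters' processing notes. Its version, the summarisation method and the genome build were not given in these sources. Samples took their genotype from the labels, and 0 columns belonged to no sample. The p-values set a difference against the spread between these samples and take the fetuses as independent. Nothing in the labels says which fetuses shared a litter, so that independence could not be checked.

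Of 28815 probe sets, 21780 named 1 gene, 1605 several and 5430 none in the platform table. Of those naming 1 gene, 21689 were found in the RefSeq gene table. All 21780 were kept, found there or not, and gave 19935 genes. For 998 genes with several probe sets the one of highest mean over the 12 arrays was used. Values were used as deposited, with no filter on dim probe sets. Genotypes were compared with limma 3.58.1 in R 4.3.3 (lmFit and eBayes), p-values adjusted over the 19935 genes by Benjamini-Hochberg, a threshold of 0.05, and single genes also with an exact permutation of the 12 arrays. Spread was compared by the same fit on absolute deviations from the genotype median. Scripts were tested on simulated data. A further promoter motif is not reported here.

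The 10 genes and the lists were chosen with earlier results of these data known. Named genes were the 10, the 2 targeted genes, the 3 of smallest p in each list, any gene past a threshold and the 5 of closest profile. Alternatives were quantile normalization, a filter on dim genes, trend and robust fitting, the replicate number as a block, array weights, the mean of probe sets, covariates, each array left out, and, added after seeing the data, the 4 arrays of narrowest distribution left out.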

Additional observations from a re-analysis of the deposited data

Results flagged for a closer look

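Cyp27a1 in wild-type replicate 5 stood apart from the other 5 wild-type arrays, at 10.77 against 11.42 for the next lowest. The same array had the lowest wild-type values of Cyp8b1, Slc10a1 and Nr0b2. In wild-type replicate 6 the mean of the erythroid markers was low, at 11.21 against 11.46 for the next lowest, and the mean of the intestinal markers was high, at 7.71 against 7.13 for the next highest. Each gap exceeded the 95% critical value of Dixon's test for 6 samples. Of 80 groups looked at 3 stood apart in this way, where chance gives about 4.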

How the results depend on the processing

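The count of bile acid genes past the threshold was 0 in every alternative run, and in the 88 planned refits that kept all arrays each gene kept its lower mean, with limma adjusted p-values from 0.805 to 1.0. With 1 array left out, 118 of 120 differences kept their sign. The ranges that crossed 0 were −0.27 to 0.032 for Cyp27a1, −0.29 to 0.038 for Nr0b2, −0.17 to 0.0064 for Macroh2a2 and −0.17 to 0.038 for Apcs, and 9 or 10 bile acid genes had a lower mean. Without the 4 arrays of narrowest distribution that number was 1, and the differences were 0.026 for Cyp7a1, 0.29 for Cyp27a1, 0.058 for Cyp7b1, 0.13 for Cyp8b1, 0.043 for Akr1d1, 0.079 for Slc10a1, 0.14 for Abcb11, 0.10 for Nr1h4 and 0.54 for Nr0b2 (limma adjusted p from 0.386 to 0.957 over the 10 genes). There too, differences were 0.0087 for Akr1c6, 0.0073 for Stard5, 0.12 for Scp2, 0.082 for Ephx1, 0.24 for Slc10a5, 0.014 for Ppara, 0.095 for Macroh2a2, 0.19 for Pde3b, 0.51 for Apoc3, 0.21 for Ddo, 0.40 for Ifit3 and 0.31 for Apcs. Those 4 include the 3 double knockout arrays where the bile acid genes were lowest, and 3 double knockout arrays remain. Over all genes, the 3 lower became 5 after quantile normalization and 2 to 6 with an array left out (6 without double knockout replicate 2). The 0 higher became 1 with the pancreas markers as a covariate and 0 to 1 with an array left out. The 1 gene of differing spread became 0 after quantile normalization, 9 with deviations from the mean, and 0 to 3 with an array left out. The spread difference was −0.0027 for Baat after quantile normalization. With an array left out it ran from −0.011 to 0.043 for Cyp7a1, −0.017 to 0.030 for Cyp7b1 and −0.0096 to 0.050 for Baat. The causes were not tested. The labels number the arrays 1 to 6 in both genotypes. Same-numbered arrays correlated between −0.18 and 0.49, with 5 of the 6 over 0.1. The labels do not say what a number shares, so the numbers were not taken as pairs. A factor shared by number is therefore left out of the intervals and permutation p-values given above. With the replicate number as a block 2 genes were lower and 0 higher, and 0 bile acid genes passed. Of the 6 double knockout arrays 3 correlated best with the wild-type array of their own number.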
